A study of Mus musculus with 12 samples.

Results

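The comparison described here is the genotype dependence of the activation response of splenic regulatory T cells (Treg). For every gene it is the change over 3 h of stimulation in Cd83-deficient cells minus the change in wild-type cells, written as (KO 3 h minus KO 0 h) minus (WT 3 h minus WT 0 h) on the log2 scale. All 12 arrays of the series enter it, and a second version uses the 10 arrays from mice of 9 or 10 weeks. The values were obtained for 18545 genes. A value above 0 means that the 3 h level minus the 0 h level was higher in KO than in WT, whichever way the gene moved.

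All cells were sorted splenic Treg of female C57BL/6 mice. The 4 groups of 3 arrays were CD83 WT cells without activation (WT 0 h), CD83 WT cells activated for 3 h with antibodies to CD3 and CD28 (WT 3 h), CD83cKO cells without activation (KO 0 h) and CD83cKO cells activated in the same way (KO 3 h). WT mice were 9 weeks old, and KO mice were 10 weeks old except for replicate 3 at 0 h and replicate 3 at 3 h, which came from mice of 21 weeks. No Cre driver is named for the conditional knockout in the labels. The series lists 6 mice for 12 arrays without saying which arrays share a mouse, so the p-values treat as independent some arrays that may not be. Total RNA for amplification was 20 ng for a sample called sample 1 at 0 h, of unstated genotype, and 40 ng for the others.

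Treg are CD4 T cells that hold immune responses in check under control of the transcription factor Foxp3. Antibodies to CD3 stand in for antigen at the T cell receptor and antibodies to CD28 supply costimulation, which together switch on a first wave of genes (immediate early transcription factors of the EGR, NR4A and AP-1 families), then feedback inhibitors, cytokines and receptors, and later the metabolism needed for growth. CD83 is a membrane protein of the immunoglobulin superfamily found on mature dendritic cells and on activated lymphocytes, Treg included. The design asks whether cells without it respond differently to the same stimulus.

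Values below are log2 signals relative to a reference level of each array (the 75th percentile of those probes that the scanner software called well above background on each of the 12 arrays), and effects are log2 differences ± the standard error of the fit. An adjusted p under 0.05 was taken as passing the test. The 6 KO arrays lay on 1 slide, the WT 0 h arrays on another and the WT 3 h arrays on the last of the 3, so the activation effect in WT, and with it every difference between genotypes in the response, cannot be told apart from a difference between slides; the activation effect in KO lies within 1 slide. The 2 arrays of 21-week mice stood apart from the others. Their mean level over 14 T cell markers was 1.32 at 0 h and 0.52 at 3 h, against 2.64 to 3.27 on the other 10 arrays, and over 9 plasma cell markers it was 3.05 and 3.49, against -2.13 to -0.61. The mean over 18 monocyte and macrophage markers ran from -0.43 to -0.21 in KO 0 h, -2.88 to -1.72 in KO 3 h, -2.66 to -2.0 in WT 0 h and -4.57 to -4.18 in WT 3 h, so it was lower at 3 h in both genotypes and higher in KO at both times. Of these 18 markers, 15 to 18 were well above background per array. Their median difference between genotypes in the response was 0.04 over 10 arrays, where that of all genes was 0.03. It was -1.24 for plasma cell, -0.73 for B cell, -0.66 for dendritic cell and -0.58 for NK cell markers. The B cell and dendritic cell markers were higher in KO by a median of 1.27 and 1.61 at 0 h and 0.37 and 0.75 at 3 h. The part of these other cells in the differences was not tested, and in bulk RNA fewer cells of a type and less RNA per cell cannot be told apart.

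Cd83 itself rose in WT and was lower in KO at both times. Its signal was 2.36, 2.17 and 2.39 in WT 0 h, 4.21, 3.69 and 3.65 in WT 3 h, 0.75, 0.29 and 0.23 in KO 0 h and 1.06, 1.07 and 1.92 in KO 3 h. The highest KO 3 h value was that of the 21-week mouse, and the KO arrays at either time lay below the WT arrays at either time. Cd83 rose by 1.55 ± 0.26 in WT (limma, adjusted p = 0.00248) and by 0.93 ± 0.26 in KO (adjusted p = 0.0388); over 10 arrays the KO value was 0.55 ± 0.22 and missed the threshold of 0.05 (adjusted p = 0.0732). The difference between the responses was -0.62 ± 0.37 over 12 arrays (adjusted p = 1) and -1.0 ± 0.28 over 10 arrays (95% interval -1.65 to -0.35, adjusted p = 0.435). The probe lies on chromosome 13 at 43898276 to 43898335 (mm9), and neither labels nor files tell if the deleted part covers it.

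No gene passed the test of the difference itself. In limma with Benjamini-Hochberg adjustment, 0 of 18545 genes (0%) had an adjusted p under 0.05 over 12 arrays, where the smallest was 0.0515, and 0 of 18545 (0%) over 10 arrays, where the smallest was 0.0581. At an unadjusted p under 0.05 there were 688 genes over 12 arrays, 347 with a value above 0 (1.87%) and 341 below 0 (1.84%). Over 10 arrays there were 1983 such genes, 1135 above 0 (6.12%) and 848 below 0 (4.57%). The same tests of the activation effect called many genes. Over 12 arrays 1368 genes rose (7.38%) and 1815 fell (9.79%) in KO, and 2463 rose (13.3%) and 3080 fell (16.6%) in WT. Over 10 arrays the counts in KO were 3756 (20.3%) and 4810 (25.9%), and in WT 4485 (24.2%) and 5863 (31.6%). Leaving out KO 3 h replicate 3, of the 21-week mice, gave 6893 calls in KO in place of 3183, and leaving out KO 0 h replicate 2, KO 3 h replicate 1 or KO 3 h replicate 2 gave 1800, 1886 and 1830. In WT, leaving out any single WT array gave similar counts, from 3630 (WT 3 h replicate 1) to 3735 (WT 0 h replicate 1), in place of 5543. These unequal counts do not by themselves test a difference between the genotypes.

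The count of 0 depended on how arrays were scaled. With quantile normalization 4 genes were called over 12 arrays and 11 over 10 arrays, and with the authors' deposited log2 table there were 4 and 9; the same 4 and 9 genes were shared by both settings. Nxpe5 was among the shared genes over both sets of arrays, and Slc41a2 and Apol7c over 10 arrays. Array weights called 1 gene over 12 arrays and 0 over 10. Without KO 0 h replicate 2 the 10-array comparison called 21 genes, without KO 3 h replicate 1 it called 5, without KO 3 h replicate 2 it called 4, without KO 0 h replicate 1 it called 3 and without WT 0 h replicate 1 it called 1; without the latter the 12-array comparison called 1.

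The responses of the 2 genotypes were alike in direction. Across the 18545 genes the KO effect and the WT effect had Pearson's r = 0.845 over 12 arrays and 0.859 over 10, a description across genes that share probes and scaling but no arrays. Both effects were called for 2749 genes over 12 arrays, and in 1 of these the signs were opposite. Over 10 arrays both were called for 7456 genes, of which 13 had opposite signs. The median 95% interval of a difference reached 0.93 to either side over 12 arrays and 0.57 over 10 arrays.

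**Figure D1:**
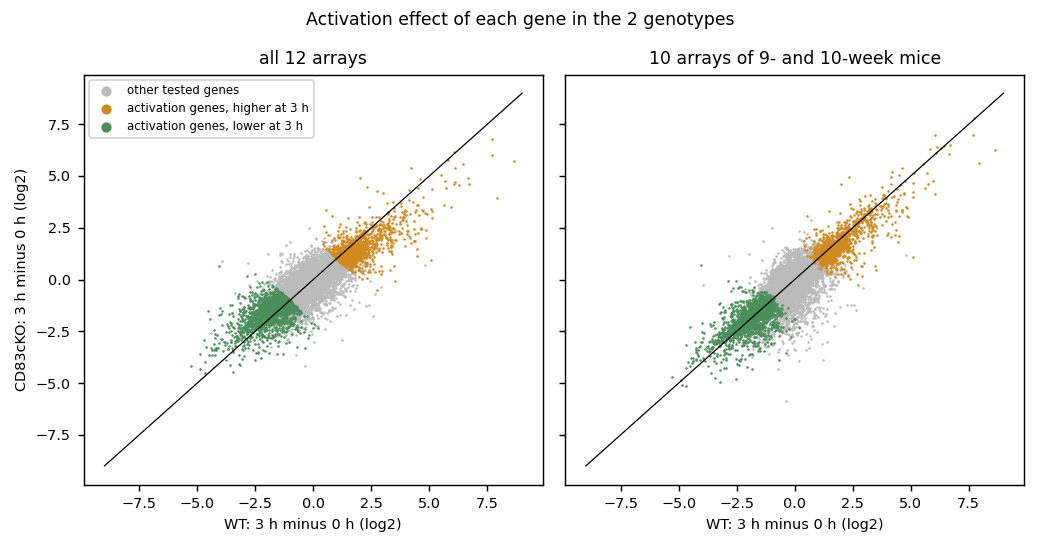
Activation effect (3 h minus 0 h, log2) of each of the 18545 genes in WT (horizontal axis) and in CD83cKO (vertical axis), over all 12 arrays (left) and the 10 arrays of 9- and 10-week mice (right); the line marks equal effects, and orange and green mark activation genes higher and lower at 3 h. The points follow the line in both panels (r = 0.845 and 0.859), and among rising activation genes 77.9% have the larger effect in WT over 12 arrays and 61.4% over 10.

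To describe the response itself, activation genes were taken from the average of both genotypes' effects, which in the balanced design of 12 arrays does not contain the difference. They numbered 1361 genes higher at 3 h by at least 1 log2 unit (7.34%) and 2104 genes lower by at least 1 (11.3%), each with an adjusted p under 0.05. Among genes with a symbol and a probe well above background on all 12 arrays, the largest rises were those of Ramp3 (a partner protein of calcitonin-family receptors), the nuclear receptor Nr4a2, the AP-1 subunit Fosl2, the cAMP-responsive repressor Crem, the cell cycle inhibitor Cdkn1a, the zinc finger factor Plagl1, the NF-kB inhibitor Tnfaip3 (A20) and Trp53inp2 (a factor of autophagy). For none of these 8 did the difference between genotypes pass the test.

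Nr4a2 gave signals of -2.60, -2.78 and -3.08 in WT 0 h and 3.78, 3.53 and 3.54 in WT 3 h. In KO they were -2.97, -3.05 and -3.85 at 0 h and 3.25, 3.6 and 0.08 at 3 h, the last being the 21-week mouse. At 3 h 1 array of the 10-week KO mice lay within the WT range and the other just below it, and the 21-week array stood far below them. The difference was -0.83 ± 1.06 over 12 arrays and 0.00 ± 0.24 over 10 arrays (95% interval -0.55 to 0.56). Ramp3 had the largest average rise of these genes, 7.71 in WT and 6.77 in KO over 12 arrays. Its signals were -2.02, -1.91 and -1.84 in WT 0 h, 5.81, 5.78 and 5.76 in WT 3 h, -2.4, -1.82 and -2.45 in KO 0 h and 5.49, 5.93 and 2.24 in KO 3 h. Over 10 arrays its KO effect was 7.82 and the difference 0.11 ± 0.27 (95% interval -0.50 to 0.72). Tnfaip3, Plagl1 and Crem had the same form, with differences of -0.76, -0.76 and -0.74 over 12 arrays and 0.02, 0.03 and -0.01 over 10 arrays. The widest of the 3 intervals over 10 arrays was that of Plagl1, -0.49 to 0.54. For Nr4a2, Ramp3, Tnfaip3, Plagl1 and Crem the 10-array interval did not reach a difference of 1 log2 unit in either direction.

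Fosl2 had a value below 0 in both versions of the comparison. Its signals were -4.71, -5.07 and -5.18 in WT 0 h, 1.69, 1.63 and 1.72 in WT 3 h, -4.20, -4.36 and -3.75 in KO 0 h and 1.74, 1.85 and -1.25 in KO 3 h. At 0 h all KO arrays lay above all WT arrays, and at 3 h the 10-week KO arrays lay just above the WT arrays. The difference was -1.79 ± 0.95 over 12 arrays and -0.60 ± 0.21 over 10 arrays (adjusted p = 0.455). A second probe of Fosl2 gave -3.22 over 12 arrays. Cdkn1a and Trp53inp2 gave -0.94 and -0.93 over 12 arrays and -0.54 and -0.44 over 10 arrays, with intervals over 10 arrays that included 0.

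Under the same restriction, the largest falls were those of Kcnj10 (an inwardly rectifying potassium channel), the interferon-induced Ifit3, Phf11a, the signal regulatory protein Sirpb1a, the class I-like H2-T24, Armc3, the urea transporter Slc14a1 and the liprin Ppfia4. Kcnj10 fell by 4.08 in WT and by 3.05 in KO over 12 arrays; its signals were -2.98, -2.13 and -2.58 in WT 0 h, -7.57, -6.14 and -6.22 in WT 3 h, -0.52, -0.15 and -0.88 in KO 0 h and -3.68, -3.44 and -3.57 in KO 3 h. KO arrays lay above WT at both times without overlap, with a difference of 1.03 ± 0.53 over 12 arrays and 0.86 ± 0.62 over 10 arrays. Armc3 fell by 3.24 in WT and 2.95 in KO, with a difference of 0.03 ± 0.27 over 10 arrays (95% interval -0.60 to 0.65). Ppfia4 was the one of the 8 whose fall was larger in KO, by 3.32 against 2.81, with a difference of -0.51 ± 0.57. The differences of the other 5 over 12 arrays ran from 0.43 (Sirpb1a, where 1 of its 3 probes gave -0.83) to 1.40 (Ifit3). In Ifit3 the KO 0 h arrays were spread from -3.58 to -0.87 while WT 0 h lay between -1.29 and -0.57.

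**Figure D2:**
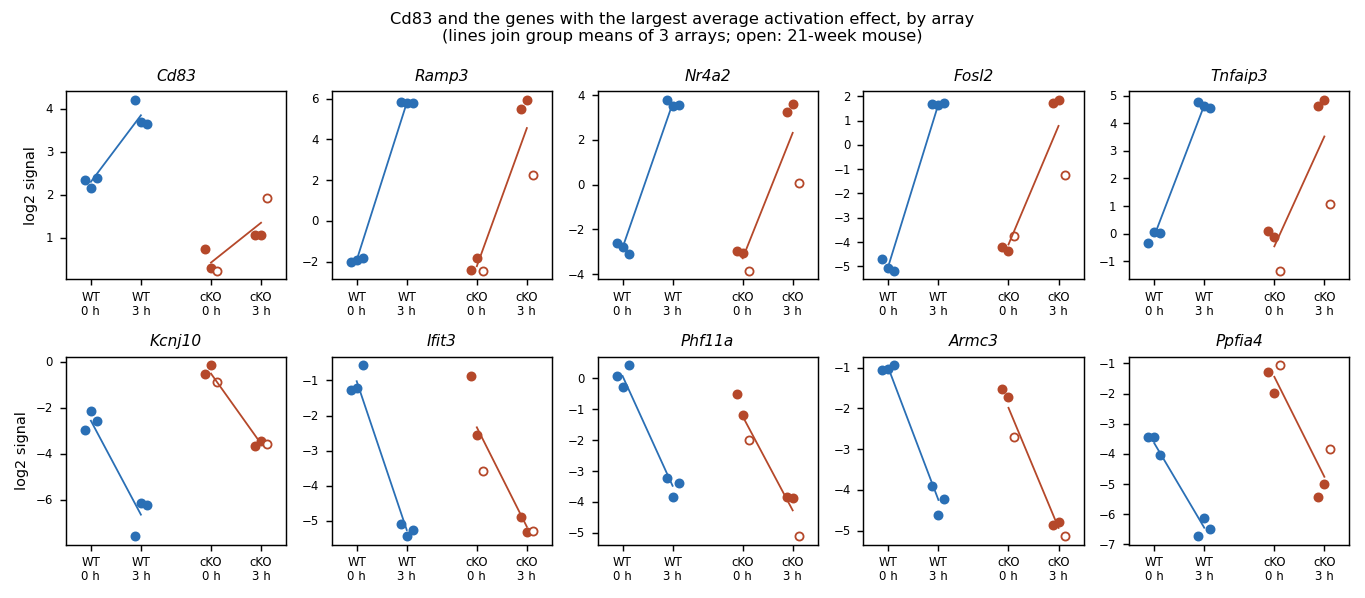
Log2 signal of Cd83 and of 9 of the 16 genes with the largest average activation effects on each of the 12 arrays, by genotype and time; lines join the means of 3 arrays and open circles are the 21-week mice. Nr4a2, Ramp3, Fosl2 and Tnfaip3 at 3 h are lowest on the array of the 21-week KO mouse, and the other 2 KO arrays sit at the WT level.

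The size of the whole response differed between the genotypes over 12 arrays and by less over 10. The median effect of the 1361 rising activation genes was 1.31 in KO and 1.63 in WT over 12 arrays, with a median difference of -0.35, and 77.9% of them had the larger effect in WT. Over 10 arrays the medians were 1.53 and 1.63, the median difference was -0.10, and 61.4% were larger in WT. The median effect of the 2104 falling genes was -1.35 in KO and -1.63 in WT over 12 arrays (median difference 0.32, 74.9% larger in WT), and -1.63 in both genotypes over 10 arrays (median difference 0.08, 57.1% larger in WT). For comparison, the median difference over all genes was 0.06 over 12 arrays and 0.03 over 10. At unadjusted p over 12 arrays, 116 rising genes had a difference below 0 and 12 above, and for falling genes it was 30 and 105. Over 10 arrays it was 167 and 37 for rising genes and 79 and 139 for falling genes. Of all genes 1.84% were below 0 and 1.87% above over 12 arrays, and 4.57% and 6.12% over 10.

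The lower KO medians over 12 arrays moved with 1 array. Among activation genes well above background on all arrays (1008 rising and 1257 falling), the median rise over the mean of the genotype's 0 h arrays was 1.56, 1.53 and 1.60 on the WT 3 h arrays. It was 1.60 and 1.55 on the KO 3 h arrays from 10-week mice and 0.68 on the one from the 21-week mouse. The median falls were -1.57, -1.49 and -1.55 in WT and -1.39, -1.37 and -0.86 in KO, again with the 21-week mouse last. Within the 10-week KO mice the median rise from 0 h to 3 h was 1.48 and the median fall -1.46. In the 21-week mice, with 1 array at each time, they were 0.81 and -0.77. The same array had the lowest T cell marker level (0.52) and the highest plasma cell marker level (3.49) of all 12, and the age of the mouse, the makeup of the cells and this single array cannot be told apart. Under other scalings and filters the median difference of the rising genes ran from -0.73 to -0.11 over 12 arrays and from -0.51 to 0.02 over 10, so over 10 arrays its sign was not stable (0.02 with normexp background correction), and that of the falling genes ran from -0.06 to 0.34 and from -0.33 to 0.14.

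**Figure D3:**
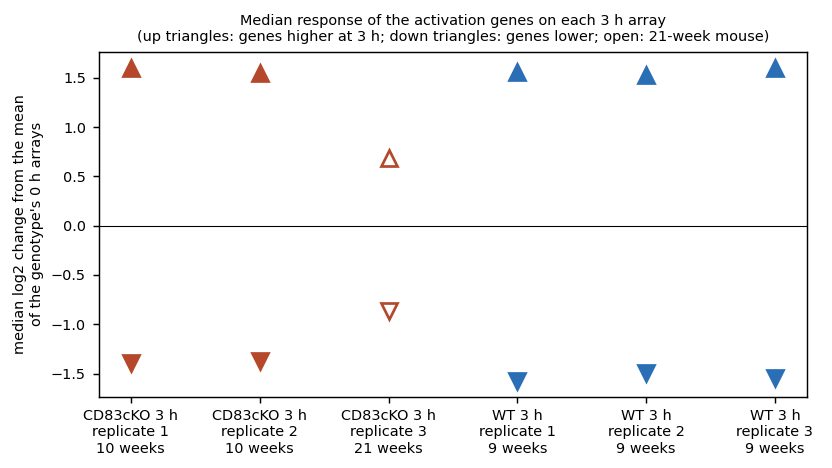
Median log2 change of the 1008 rising (upward triangles) and 1257 falling (downward triangles) activation genes on each 3 h array, relative to the mean of the genotype's 3 arrays at 0 h; open symbols mark the 21-week mouse. Its medians of 0.68 and -0.86 lie closest to 0, while the other 5 arrays lie between 1.53 and 1.60 for rising genes and between -1.57 and -1.37 for falling genes.

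For the 3465 activation genes together the 95% interval of the difference lay within -1 to 1 for 442 genes (12.8%) over 12 arrays and for 1669 genes (48.2%) over 10 arrays. Of all tested genes it did so for 34.9% over 12 arrays and 60% over 10.

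Several of the genes nearest to the threshold had signal above background in 1 group alone. Over 12 arrays the smallest adjusted p (0.0515) belonged to a probe without a gene symbol on chromosome 19 (60238315 to 60238374, mm9) in a transcribed region of the array's design. It was well above background on the 3 WT 0 h arrays alone (-6.31, -4.95 and -5.07) and lay between -9.64 and -8.13 on the other 9. Its difference was 4.73 ± 0.50 over 12 arrays, and 2.75 with the dim groups at the lowest signal above background. Over 12 arrays it was called in 6 of the alternative settings, among them a fit with a term for the 21-week mice (adjusted p = 0.0281). This probe was singled out after its values were seen.

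Nxpe5, a member of a family of secreted neurexophilin-like proteins, was next. Its signal was -5.21, -4.93 and -5.20 in KO 0 h and -8.75, -8.44 and -8.11 in KO 3 h, against -9.06, -8.50 and -9.38 in WT 0 h and -9.60, -9.26 and -9.15 in WT 3 h. The KO 0 h arrays were the 3 well above background, and they lay apart from all 9 others. Its measured KO effect was -3.32 ± 0.25 (limma, adjusted p = 0.00012), which uses KO 3 h signals not well above background. As a lower bound against the lowest signal above background, Nxpe5 fell at least 2.75-fold in KO, and this bound was not tested. In WT it gave -0.35, where neither time had signal above background. The difference was -2.97 ± 0.36 over 12 arrays (adjusted p = 0.0804) and -3.17 ± 0.37 over 10 arrays (adjusted p = 0.0581); with quantile normalization it was -3.31 and called (adjusted p = 0.00845), and with the deposited table -3.32 (adjusted p = 0.00754). In 3 of the 4 groups the level of Nxpe5 is only a bound, and with these groups at that bound the 12-array difference was -1.54.

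Apol7c, an apolipoprotein L family member, showed the same arrangement. It gave -5.81, -6.37 and -6.04 in KO 0 h, -9.05, -8.87 and -6.34 in KO 3 h, -9.46, -9.37 and -9.71 in WT 0 h and -8.77, -8.32 and -9.34 in WT 3 h. It was well above background on the KO 0 h arrays and on no array of the other groups, and its KO 3 h value in the 21-week mouse was close to the KO 0 h values. The difference was -3.58 ± 0.42 over 10 arrays (adjusted p = 0.0581) and -2.72 ± 0.86 over 12 (adjusted p = 1). The level was only a bound in the 3 other groups, so that the fall in KO was at least 1.41-fold over 12 arrays and at least 1.63-fold over 10, and with the dim groups at that bound the 12-array difference was -0.57. Slc41a2, a magnesium transporter, fell in KO and rose in WT over 10 arrays (adjusted p = 0.00102 and 0.001). Its signals were -5.05, -5.75 and -3.89 in KO 0 h, -7.85, -7.41 and -2.37 in KO 3 h, -8.63, -7.84 and -8.08 in WT 0 h and -6.74, -6.28 and -6.51 in WT 3 h. The 21-week mice were the highest at both times, so the difference of -3.91 ± 0.42 over 10 arrays (adjusted p = 0.0581) became -2.65 ± 1.67 over 12. WT 0 h and the 10-week KO 3 h arrays were not well above background for Slc41a2, so that the rise in WT was at least 2.12-fold and the fall in KO at least 2.63-fold.

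Pak1 and Kctd12 were well above background on all 12 arrays. Pak1 encodes a kinase downstream of the small GTPases Rac and Cdc42 that acts on the cytoskeleton. It gave -5.13, -5.03 and -4.81 in WT 0 h, -0.73, -0.75 and -0.85 in WT 3 h, -3.76, -3.83 and -4.0 in KO 0 h and -1.16, -1.03 and -4.04 in KO 3 h. KO began higher and, at 10 weeks, ended lower than WT with no overlap at either time, and the 21-week mouse at 3 h had the level of 0 h. Pak1 rose by 4.21 in WT and 2.70 in KO over 10 arrays, a difference of -1.51 ± 0.16 (95% interval -1.89 to -1.13, adjusted p = 0.0581). Kctd12, an auxiliary subunit of GABA-B receptors, gave -5.26, -4.77 and -5.28 in WT 0 h, -2.89, -2.74 and -2.81 in WT 3 h, -3.34, -3.59 and -2.21 in KO 0 h and -3.18, -3.26 and -0.80 in KO 3 h. It rose by 2.29 in WT over 10 arrays and gave 0.24 in KO, with KO above WT at 0 h. Its difference was -2.05 ± 0.23 over 10 arrays (adjusted p = 0.0581; called with quantile normalization at adjusted p = 0.0487) and -1.66 ± 0.85 over 12.

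Of the genes with a symbol and the smallest p below 0 over 12 arrays, Kif23, Wdr90 and Tlcd1 were well above background on all arrays. Kif23, a kinesin of cytokinesis, gave -5.28, -4.58 and -5.00 in WT 0 h, -2.92, -2.74 and -2.85 in WT 3 h, -3.98, -3.91 and -3.31 in KO 0 h and -3.81, -3.31 and -4.03 in KO 3 h. WT rose from below the KO level to above it, while the KO times overlapped. The difference was -2.1 ± 0.36 over 12 arrays (adjusted p = 0.442) and -1.74 ± 0.31 over 10. Wdr90, a centriole protein, and Tlcd1, a membrane lipid regulator, gave -1.43 ± 0.25 and -1.56 ± 0.28 over 12 arrays (adjusted p = 0.442 for each) and -1.29 and -1.56 over 10. For both, all KO arrays lay above all WT arrays at 0 h and below them at 3 h. For Tlcd1 at 3 h the separation was narrow, with KO between -3.32 and -3.00 and WT between -2.98 and -2.67. Ehd2, a membrane-remodelling ATPase, had -3.52 ± 0.57 over 12 arrays (adjusted p = 0.442) and was not well above background in WT 0 h, from which it rose at least 2.87-fold.

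Above 0, the smallest unadjusted p-values over 12 arrays among genes with a symbol belonged to Mmp19, Sctr, Cep112, Ccdc38 and Psapl1. Mmp19, a matrix metalloproteinase, was well above background in KO 3 h (-3.71, -3.65 and -3.41) and on 2 of the WT 3 h arrays (-7.28, -6.83 and -8.11), and on none at 0 h. It rose at least 12.6-fold in KO and at least 1.14-fold in WT, and the difference was 2.92 ± 0.43 (adjusted p = 0.283) over 12 arrays and 2.64 ± 0.45 (adjusted p = 0.208) over 10. The other 4 were not well above background at 3 h in either genotype and at 0 h were so on 3 WT arrays and 1 or 2 KO arrays, and their differences ran from 2.44 to 3.01. Over 10 arrays Lgals3 and Tbc1d16 joined this group. Lgals3 encodes galectin-3, a glycan-binding protein of activated T cells and macrophages. It gave -0.06, 0.02 and 0.31 in WT 0 h, 0.27, 0.70 and 0.49 in WT 3 h, 0.58, 0.67 and 1.76 in KO 0 h and 2.32, 2.67 and 3.13 in KO 3 h. KO was above WT at each time and rose by 1.87 over 10 arrays (adjusted p = 0.000193), against 0.40 in WT (adjusted p = 0.0593), a difference of 1.47 ± 0.25 (95% interval 0.90 to 2.04, adjusted p = 0.202). Tbc1d16, a GTPase-activating protein for Rab proteins, fell by 2.15 in WT and 0.61 in KO, a difference of 1.54 ± 0.26 (adjusted p = 0.202).

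**Figure D4:**
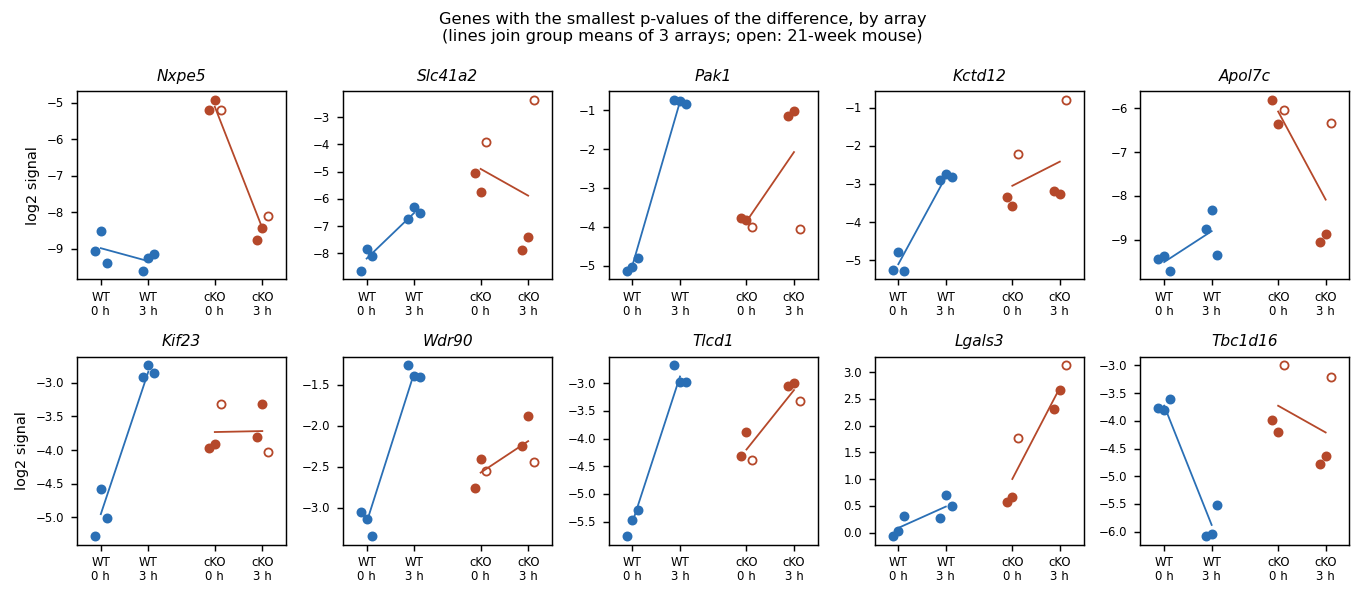
Log2 signal on each of the 12 arrays of 10 genes with small p-values of the difference, by genotype and time; lines join the means of 3 arrays and open circles are the 21-week mice. Nxpe5 is high in KO 0 h alone, Apol7c there and on the 21-week KO array at 3 h, Pak1, Kctd12, Kif23, Wdr90 and Tlcd1 start lower in WT and have the larger effect there over 10 arrays, and Lgals3 has the larger effect in KO.

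For several of these genes the genotypes were further apart at 0 h than at 3 h. Over 10 arrays Nxpe5 was higher in KO than in WT by 3.92 at 0 h and by 0.74 at 3 h, Ehd2 by 3.21 and -0.29, Kctd12 by 1.64 and -0.41, and Pak1 by 1.20 and -0.31. Of the 848 genes with a difference below 0 at unadjusted p over 10 arrays, 673 (79.4%) had the larger gap between genotypes at 0 h, as did 805 of the 1135 above 0 (70.9%) and 11839 of all 18545 genes (63.8%). Mmp19 and Lgals3 had the larger gap at 3 h, with gaps of 1.09 and 0.53 at 0 h and 3.73 and 2.01 at 3 h. Some of these gaps include signals not well above background. That holds for Nxpe5 in all groups but KO 0 h, Ehd2 in WT 0 h and Mmp19 at 0 h in both genotypes. The sizes of those gaps are not measured.

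Genes called in both genotypes with opposite signs over 10 arrays numbered 13, of which 8 had a gene symbol. They are named after their values were seen. Trf, which encodes the iron carrier transferrin, rose by 1.76 in WT (adjusted p = 0.00597) and fell by 1.62 in KO (adjusted p = 0.0266). Its signals were -0.01, 1.25 and 1.15 in WT 0 h, 2.57, 2.56 and 2.54 in WT 3 h, 3.05, 3.29 and 3.49 in KO 0 h and 0.92, 2.19 and 2.45 in KO 3 h, so KO started above all WT arrays and ended below WT 3 h. The difference was -3.37 ± 0.62 over 10 arrays (adjusted p = 0.257) and -3.18 ± 0.59 over 12 (adjusted p = 0.556), where Trf was the gene with opposite calls. Slc12a2, a sodium, potassium and chloride cotransporter, rose by 0.30 in WT and fell by 0.55 in KO, and over 12 arrays its difference was -1.01 ± 0.21 (adjusted p = 0.597). Soat1, which esterifies cholesterol for storage, went the other way, rising by 0.45 in KO and falling by 0.36 in WT. In Dcbld1, Fbln1, Ahrr and Plat at least 1 group was not well above background.

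The gene lists of pathways were set against the share of all genes at the same unadjusted p. Over 10 arrays, 12 of 26 sterol biosynthesis genes had a difference above 0 at unadjusted p and 0 below, where 6.12% and 4.57% of all genes did; over 12 arrays it was 5 and 0, against 1.87% and 1.84%. None passed adjustment over all genes. This pathway makes cholesterol from acetyl-CoA under control of the SREBP factors, and growing T cells draw on it for their membranes. The median difference of the list was 0.55 over 10 arrays and 0.39 over 12, where that of all genes was 0.03 and 0.06. Its median activation effect over 10 arrays was 0.83 in KO and 0.19 in WT: 17 members rose and 4 fell in KO, and 9 rose and 5 fell in WT. Of all genes 20.3% rose and 25.9% fell in KO, and 24.2% rose and 31.6% fell in WT. The list's median stayed above that of all genes under every scaling and filter tried (by 0.40 to 0.60 over 10 arrays and 0.15 to 0.57 over 12) and with each array left out (by 0.28 to 0.72 and 0.13 to 0.58). The counts above 0 with 1 array left out ran from 5 (without KO 3 h replicate 1) to 16 (without KO 3 h replicate 2) over 10 arrays, and from 2 (without KO 3 h replicate 1 or WT 3 h replicate 3) to 11 (without KO 3 h replicate 3) over 12, and with no shift between arrays 1 member was above 0 and 1 below at unadjusted p over 10 arrays.

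Among its members, Hmgcs1 catalyses an early step of the mevalonate pathway. It gave 0.25, 0.04 and 0.21 in WT 0 h, 1.25, 0.91 and 0.86 in WT 3 h, -0.21, -0.46 and -0.60 in KO 0 h and 1.80, 1.27 and 0.01 in KO 3 h. KO lay below WT at 0 h on every array and, at 10 weeks, above it at 3 h; the 21-week mouse lay below. Hmgcs1 rose by 1.87 in KO (adjusted p = 0.000286) and 0.84 in WT (adjusted p = 0.00363) over 10 arrays, a difference of 1.03 ± 0.27 (95% interval 0.41 to 1.66, adjusted p = 0.408). Fdps, which makes farnesyl diphosphate, Msmo1, a sterol demethylase, and Sqle, the oxygenase that makes squalene epoxide, gave 0.91 ± 0.22, 0.92 ± 0.30 and 1.00 ± 0.35 over 10 arrays, and each rose in KO (adjusted p = 0.00208, 0.0105 and 0.0172) while its WT effect was 0.11, 0.05 and 0.00. Insig1, the sterol-sensing inhibitor of SREBP processing, rose in both, by 2.50 in KO and 1.81 in WT. Scd1, a fatty acid desaturase on the same list, had -1.32 ± 1.05. The mean level of the 26 genes ran from -2.12 to -2.05 in WT 0 h, -1.90 to -1.78 in WT 3 h, -2.44 to -2.01 in KO 0 h and -2.11 to -1.24 in KO 3 h, so KO spread more widely than WT at either time. Members other than Scd1 were picked for description after their values were seen.

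**Figure D5:**
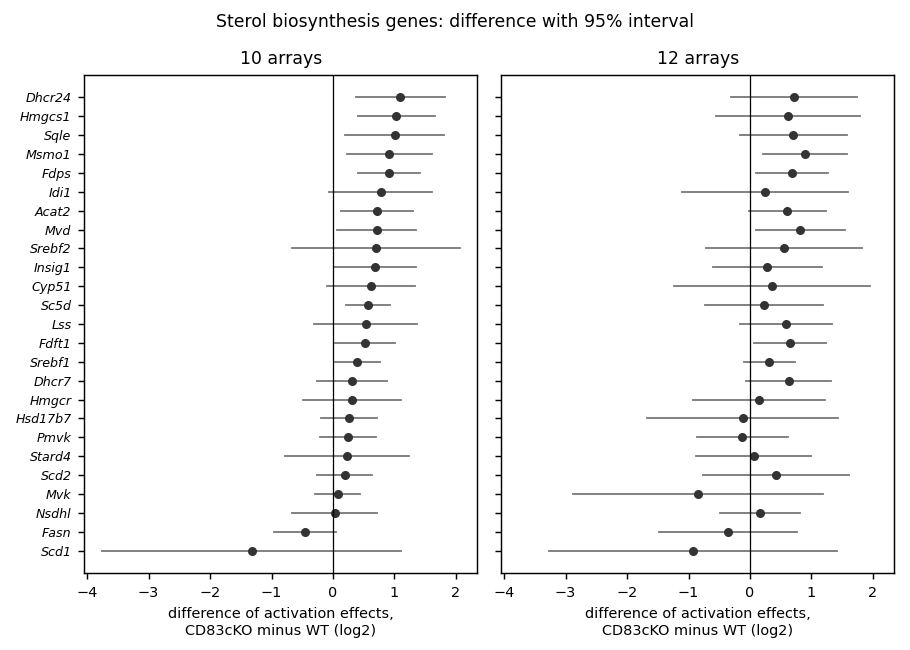
Difference of activation effects (CD83cKO minus WT, log2) for 25 of the 26 tested sterol biosynthesis genes with its 95% interval, over 10 arrays (left) and 12 arrays (right), ordered by the 10-array value. Over 10 arrays 23 of 25 points lie above 0 and over 12 arrays 20 do.

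The promoter of Hmgcs1 is shown. Of the 17 list members that could be searched, Hmgcs1 alone had a match to the element that SREBP factors bind. The sequence is the 250 bases before the gene's start on its own strand (RefSeq, GRCm38.p6, chr13:119690101-119690350, plus strand), with the capitals marking a match to the sterol element TCACNCCAC searched on both strands, which begins at -137 relative to the start.
Hmgcs1: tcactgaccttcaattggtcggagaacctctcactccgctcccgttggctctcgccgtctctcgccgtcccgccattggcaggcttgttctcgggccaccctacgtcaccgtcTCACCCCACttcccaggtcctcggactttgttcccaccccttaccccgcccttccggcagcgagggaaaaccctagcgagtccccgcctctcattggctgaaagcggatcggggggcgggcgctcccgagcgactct
Of the 26 genes 17 matched the RefSeq promoter table, with 22 windows from 250 bases before to 50 after a start. The element was in 1 window (4.55%), against 1.24% of all 32851 windows of the table and 1.05% of those of all tested genes. For comparison with the common part of the response, the cAMP response element TGACGTCA, bound by the CREB and CREM factors, was in 5.99% of the windows of rising activation genes, 1.47% of those of falling ones and 3.03% of those of all tested genes. An example among the largest rises is Trp53inp2 (GRCm38.p6, chr2:155381606-155381855, plus strand), with capitals marking TGACGTCA at -41 relative to the start.
Trp53inp2: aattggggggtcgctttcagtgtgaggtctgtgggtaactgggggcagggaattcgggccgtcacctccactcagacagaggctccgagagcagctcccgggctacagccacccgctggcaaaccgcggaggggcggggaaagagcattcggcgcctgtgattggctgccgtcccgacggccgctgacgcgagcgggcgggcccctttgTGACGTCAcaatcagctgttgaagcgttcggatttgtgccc
The AP-1 site TGANTCA was in 5.71% of the windows of rising genes, 5.99% of those of falling ones and 5.26% of those of tested genes. A match is a description of the letters and not evidence of binding.

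The immediate early genes of the T cell receptor did not share a direction. Of 27 tested, 5 had a difference above 0 and 6 below at unadjusted p over 10 arrays (background 6.12% and 4.57%), and 2 and 4 over 12 arrays (background 1.87% and 1.84%). The median difference was 0.00 over 10 arrays and -0.18 over 12. Nr4a1 (Nur77), a direct readout of receptor signalling, gave 2.85, 2.87 and 2.75 in WT 0 h, 6.10, 6.03 and 5.98 in WT 3 h, 2.95, 2.89 and 1.05 in KO 0 h and 6.22, 6.28 and 4.11 in KO 3 h, with the 21-week mice low at both times. Its difference was 0.12 ± 0.13 over 10 arrays (95% interval -0.17 to 0.41).

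Those below 0 over 10 arrays were Atf3, Fos, Fosb, Fosl2, Ier3 and Junb, and those above 0 were Fosl1, Nr4a3, Egr1, Egr4 and Jund. Fosb gave -3.42, -4.01 and -3.97 in WT 0 h, 1.14, 1.13 and 0.90 in WT 3 h, -2.75, -2.68 and -0.24 in KO 0 h and 0.55, 0.96 and -1.20 in KO 3 h. KO was above WT at 0 h on every array, and at 3 h 1 KO array lay within the WT range. Its difference was -1.38 ± 0.29 over 10 arrays (adjusted p = 0.339) and -2.86 ± 0.98 over 12. Fos gave -2.86, -2.47 and -2.97 in WT 0 h, 0.85, 0.52 and 0.30 in WT 3 h, -1.67, -1.57 and 0.45 in KO 0 h and 0.14, 0.79 and -2.4 in KO 3 h, so in the 21-week mice it was higher at 0 h than at 3 h. Its difference was -1.24 ± 0.34 over 10 arrays (adjusted p = 0.427) and -2.88 ± 1.10 over 12. Atf3, a stress-induced factor, was induced strongly in both genotypes. It was not well above background in WT 0 h and rose at least 281-fold there, to 0.92, 0.78 and 0.84. In KO it rose from -4.86, -5.67 and -4.69 to 0.95, 1.05 and 0.02, by 5.75 over 12 arrays (adjusted p = 0.000193). At 3 h the 10-week KO arrays lay just above the WT arrays, while at 0 h all KO arrays lay above all WT arrays. The difference was -2.89 ± 0.66 over 12 arrays (adjusted p = 0.93) and -2.37 ± 0.70 over 10. Fosl1 (FRA-1) had the opposite sign, 2.63 ± 0.76 over 10 arrays, and its KO 0 h arrays were not well above background. With the floor in place of signals below background its 12-array difference was 0.07 in place of 2.14.

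Secreted factors were represented by few detected genes. Of 12 helper T cytokines tested, 2 had a difference above 0 and 0 below over either set of arrays at unadjusted p. The background was 6.12% and 4.57% over 10 arrays and 1.87% and 1.84% over 12. Il2 had a difference of 1.88 ± 2.49 over 12 arrays and 0.20 ± 1.95 over 10. Its KO 3 h signal was -5.75 and -5.37 in the 10-week mice and 0.83 in the 21-week mouse, and in WT it was well above background on 1 array at 0 h and 2 at 3 h. Tnfsf11 (RANK ligand) gave 1.5 ± 0.63 over 12 arrays and 1.30 ± 0.35 over 10 (adjusted p = 0.415). Its signals were -2.42, -2.53 and -2.41 in WT 0 h, -2.48, -2.78 and -3.03 in WT 3 h, -2.82, -2.99 and -4.47 in KO 0 h and -2.33, -1.5 and -2.86 in KO 3 h. The largest value of any list member was that of Ccl1, a chemokine ligand of CCR8. It gave -2.74, -3.42 and -2.99 in WT 0 h, -5.95, -7.67 and -7.36 in WT 3 h, -5.08, -3.99 and -4.41 in KO 0 h and -5.12, -4.48 and -1.25 in KO 3 h. Ccl1 fell by 3.94 in WT (adjusted p = 0.00809) and gave 0.88 in KO, so that WT was above KO at 0 h and below it at 3 h without overlap. On WT 3 h replicate 2 its signal of -7.67 lay under that array's lowest signal well above background, -7.4. The sizes of the WT fall and of the difference therefore rest in part on signal not well above background. The difference was 4.82 ± 1.23 over 12 arrays (adjusted p = 1) and 3.68 ± 0.76 over 10 (adjusted p = 0.338). Ccl4 (MIP-1β) gave 1.76 ± 0.91 and 0.91 ± 0.39; its KO 3 h value in the 21-week mouse was 2.4 against -0.58 and -0.28.

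Of 20 Treg core genes, which mark Treg identity, 5 had a difference above 0 and 0 below over 10 arrays at unadjusted p (background 6.12% and 4.57%), with a median of 0.31. Over 12 arrays 0 passed, and the median was 0.16. With 1 array left out the 10-array count of 5 ran from 2 (without WT 0 h replicate 1 or WT 3 h replicate 3) to 5. The 12-array median ran from -0.45 (without KO 0 h replicate 3) to 1.01 (without KO 3 h replicate 3). Of the 14 T cell markers, 4 were above 0 at unadjusted p over 10 arrays and 0 below, with a median of 0.32, and their part in the Treg core values was not tested. The 5 were Foxp3, Gpr83, Tnfrsf18, Ikzf2 and Il2rb. Of these, Foxp3 was not well above background in WT at either time, and Gpr83 was not in WT 3 h. The count of 5 and the median of 0.31 therefore include values that rest on signals below background. Gpr83 gave 1.42 ± 0.25 over 10 arrays (adjusted p = 0.216): it fell at least 6.51-fold in WT, from -4.64, -4.80 and -5.01 to below background, and in the 10-week KO mice it went from -4.86 and -5.07 to -6.29 and -6.78. Tnfrsf18 (GITR) and Ikzf2 (Helios) gave 0.51 and 0.49 over 10 arrays. Foxp3 was not well above background on any of the 6 WT arrays with the probe used, while it was on all 6 KO arrays (-6.27 to -2.86), so its difference of 1.61 ± 0.65 over 10 arrays has no measured WT side and this probe gives no check of Treg identity in WT. Il2ra, the high-affinity IL-2 receptor chain, was at 2.70, 2.55 and 2.62 in WT 0 h and 2.26 and 1.71 in the 10-week KO mice at 0 h, against -2.30 in the 21-week one. Its difference was 0.57 ± 0.36 over 10 arrays.

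Of 31 effector Treg genes, 6 had a difference above 0 and 4 below at unadjusted p over 10 arrays (background 6.12% and 4.57%), and 2 and 2 over 12 (background 1.87% and 1.84%). Il10, the suppressive cytokine, gave -3.95, -4.44 and -4.55 in WT 0 h, -1.05, -1.47 and -1.38 in WT 3 h, -5.51, -4.65 and -4.84 in KO 0 h and -1.08, -1.05 and -0.29 in KO 3 h. It rose in both genotypes, by 4.19 in KO and 3.01 in WT over 12 arrays (adjusted p = 8.17e-05 and 0.000205), with a difference of 1.18 ± 0.42 (95% interval 0.25 to 2.1, adjusted p = 1) and of 1.00 ± 0.39 over 10 arrays. Il1rl1, the IL-33 receptor ST2, had a lower KO response. It gave 0.00, 0.20 and 0.43 in WT 0 h, 2.38, 2.27 and 2.61 in WT 3 h, -1.05, -1.04 and -1.24 in KO 0 h and 0.66, 0.32 and -2.34 in KO 3 h, so KO was below WT at both times. The difference was -0.67 ± 0.24 over 10 arrays (adjusted p = 0.455) and -1.55 ± 0.88 over 12. Other probes of Il1rl1 gave -2.43 and -2.14 over 12 arrays. Havcr2 (TIM-3) gave -2.39 ± 0.97 over 10 arrays with 1 of 3 WT 0 h arrays well above background, and Id2, an inhibitor of E proteins, -0.82 ± 0.20 over 10 and -1.14 ± 0.38 over 12.

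Of 27 costimulatory and inhibitory receptors and ligands, 8 had a difference above 0 and 4 below over 10 arrays (background 6.12% and 4.57%), and 3 and 2 over 12 (background 1.87% and 1.84%). Those below 0 were Cd83, Cd80, Cd86 and Havcr2, and those above 0 included Tnfsf14, Btla, Cd226, Cd200, Tnfrsf4 and Tnfrsf18. Cd80 and Cd86 are the ligands of CD28 and CTLA-4. Cd80 fell by 0.75 in KO over 10 arrays (adjusted p = 0.0115) and gave 0.34 in WT, a difference of -1.09 ± 0.24 (adjusted p = 0.357), and of -1.19 ± 0.26 over 12 arrays. Tnfsf14 (LIGHT) fell in WT from -1.65, -1.57 and -1.45 to -5.41, -5.78 and -5.65. In KO it went from -1.46, -1.46 and -2.13 to -4.74, -4.23 and, in the 21-week mouse, -1.21. Its difference was 1.03 ± 0.24 over 10 arrays (adjusted p = 0.38) and 2.35 ± 1.02 over 12. With no shift between arrays the median of this list was -0.18 over 10 arrays and -0.25 over 12, against 0.23 and 0.13 as reported.

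Most interferon response genes fell in both genotypes. Of 33, 23 fell and 1 rose in KO and 24 fell and 1 rose in WT over 10 arrays. Of all genes 25.9% fell and 20.3% rose in KO, and 31.6% fell and 24.2% rose in WT. The median difference was 0.28 over 10 arrays, with 4 above 0 and 0 below at unadjusted p (background 6.12% and 4.57%). It was 0.76 over 12 arrays, with 3 and 0 (background 1.87% and 1.84%). With no shift between arrays the 10-array median was -0.13. The interferon values depended on single KO 0 h arrays. Without KO 0 h replicate 1 the 10-array median was 0.57 with 15 above 0 and the 12-array median 1.11 with 17 above 0. Without KO 0 h replicate 2 the 10-array median was 0 with 1 above 0, and without KO 0 h replicate 3 the 12-array median was 0.44 with 0 above 0. Gbp4 and Gbp5, interferon-induced GTPases, had 2.01 ± 1.04 and 1.53 ± 0.78 over 12 arrays and 0.46 ± 0.30 and 0.47 ± 0.34 over 10, and their KO 3 h signal in the 21-week mouse was 2.56 and 1.72 while the other 5 arrays at 3 h lay between -0.90 and 0.09. A second probe of Gbp5 gave 0.59 over 12 arrays. Cell cycle genes had the lowest median of the pathway lists, -0.45 over 10 arrays and -0.59 over 12. Of 23, 1 was below 0 and 0 above at unadjusted p over 10 arrays (background below 0 4.57%). Over 12 arrays 3 were below (background 1.84%). Without KO 3 h replicate 1 the median was -0.07 over 10 arrays with 0 below 0 and -0.03 over 12 with 1 below, and without KO 3 h replicate 2 it was -0.95 with 19 below and -0.77 with 7 below. The mean level of the list was -0.99 on KO 3 h replicate 1 and 0.23 on KO 3 h replicate 2. Erythroid markers stood at -3.26 and 0.30 on the same arrays, with a median difference of -1.53 over 10 arrays and -1.11 over 12, and their part in the cell cycle values was not tested. Rrm1, a ribonucleotide reductase subunit, gave -1.05 ± 0.44 over 12 arrays and Pcna, the sliding clamp of DNA replication, -0.81 ± 0.37. Heat shock genes had 2 of 17 below 0 and 0 above over either set of arrays (background below 0 4.57% over 10 and 1.84% over 12). Over 10 arrays 13 of them rose in KO and 12 in WT, where 20.3% and 24.2% of all genes did. Hspa1a rose by 4.61 in KO and 6.06 in WT over 12 arrays (adjusted p = 0.00313 and 0.000432), a difference of -1.46 ± 1.01, and Dnajb4 gave -1.37 ± 0.58.

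The remaining pathway lists are given as counts of members past unadjusted p. The background was 6.12% above 0 and 4.57% below over 10 arrays, and 1.87% and 1.84% over 12. For activation over 10 arrays, 20.3% of all genes rose in KO and 24.2% in WT. Among 16 MAPK feedback genes 0 had a difference above 0 and 1 below over 10 arrays, while 13 rose in KO and 11 in WT. Among 22 NF-kB genes it was 1 and 0, while 15 rose in each genotype. Among 35 ribosome biogenesis and MYC target genes it was 0 and 0 over 10 arrays and 0 and 1 over 12. Among 26 glycolysis and hypoxia genes it was 3 and 2 over 10 arrays, and among 25 resting or naive Treg genes 2 and 1. Over 10 arrays it was 1 and 3 among 21 aminoacyl-tRNA and amino acid supply genes. Among 21 unfolded protein and ATF4 stress genes it was 2 and 2, and among 22 cytokine receptor feedback genes 3 and 0. Among 20 chemokine receptor and homing genes it was 0 and 2, and among 14 chemokines 2 and 0. Among 19 apoptosis regulators it was 0 and 0 over 10 arrays and 2 and 0 over 12. A difference that did not pass the test is not shown to be 0.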

How the data were processed

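Gene expression was measured on 12 one-colour Agilent mouse arrays, 3 in each of 4 groups. The deposited intensity values are the scanner software's processed signals; per the file headers this was Feature Extraction 10.7.3.1, while the submitters' processing notes name its version 11 and Partek, the latter unversioned. The deposited log2 table holds the authors' processed values of the same arrays, whose ranking matches the scanner signals and whose median is 3.89 on each array. Its scaling is not stated.

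Control spots and outlier flags were left out. Each array's log2 signals were shifted by the 75th percentile of the 19799 probes detected on each of the arrays (46.4% of probes were detected on the average array), and the brightest probe stood for a gene if well above background on the 3 arrays of at least 1 group. In each of 21 named genes with 2 or more probes the signs of the differences were compared; Gzmk and Sirpb1a had a probe of the opposite sign. Probes were named through RefSeq accessions (27509 probes), symbols (3549) or synonyms (404), and 24219 kept the name in the files. A model with the 4 group means was fitted with limma 3.58.1 in R 4.3.3, and the p-values were adjusted over all 18545 genes by the Benjamini-Hochberg method. The script was tested on simulated data. Intervals are 95% and come from the moderated fit. A fold given as "at least" sets the bright group's mean against the higher of each dim array's own signal and its lowest signal well above background. The arrays' number limits the precision.

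The genes described were Cd83, the 5 genes with a symbol and the smallest p in each direction where none was called, the 2 of each of the 30 lists with the largest 12-array difference, and the 8 largest average rises and falls among called genes with a symbol and a probe well above background on all 12 arrays. Some members of the lists are not reported here. Others were chosen after their values were seen. The comparison and the lists were chosen with earlier results of these data known.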

Additional observations from a re-analysis of the deposited data

How the results depend on the processing

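Counts of genes called for the difference were 4 over 12 arrays and 11 over 10 with quantile normalization, 4 and 9 with the deposited table, 0 and 10 with no shift between arrays, 2 and 0 with the 75th percentile over all probes, 0 and 6 with no filter on dim probes, 1 and 0 when the probes of a gene were averaged, 1 and 0 with array weights, and 1 over 12 arrays with a term for the 21-week mice. They were 0 over both sets with normexp background correction, with the fit limited to probes detected on every array and with a trended robust fit. With 1 array left out they ran from 0 to 1 over 12 arrays and from 0 to 21 over 10 (21 without KO 0 h replicate 2). The cause of these shifts was not tested. Activation called 3183 genes in KO, and 1915 with no filter, 7629 with array weights, 7136 with a term for the 21-week mice and 8566 over 10 arrays; with 1 array left out it called 1800 (without KO 0 h replicate 2) to 6893 (without KO 3 h replicate 3). In WT it called 5543, and 2822 with no shift, 12181 with array weights, 9321 with the 21-week term and 10348 over 10 arrays; with 1 array left out, 3630 (without WT 3 h replicate 1) to 7650 (without KO 3 h replicate 3). The average effect called 7682 genes, and 11775 with array weights. Of the KO calls 43% were rises, against 10.9% with no shift and 54.3% with normexp; of the average calls 45%, against 27.8% with no shift, which moved the median difference of all genes to -0.32 over 12 arrays and -0.38 over 10.

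Of 1536 values of named genes over 12 arrays under an alternative, 1511 kept their direction and side of the threshold, 3 passed it and 22 changed sign; over 10 arrays it was 182 of 194, with 12 that passed. The sign changed with normexp for Chac1 (0.256) and Vegfa (0.04), and with array weights for Tnfaip3 (0.104) and Gzma (0.012). With 1 array left out, the 12-array difference ran from -2.44 to 0.37 for Dusp10, -1.416 to 0.464 for Tnfaip3, -0.251 to 3.18 for Il2, -0.255 to 2.029 for Il2ra, -0.242 to 1.38 for Phgdh, -3.077 to 0.784 for Chac1, -2.318 to 0.003 for Vegfa, -0.01 to 0.92 for Lck, -3.572 to 0.384 for Sdc1, -2.795 to 0.439 for Jchain, -2.074 to 0.455 for Gzmk, -4.403 to 1.427 for Camp and -2.101 to 0.782 for Pf4. Each of these sign changes came on leaving out KO 0 h replicate 3, KO 3 h replicate 3 or KO 3 h replicate 1, and the first 2 are the 21-week mice. No paired analysis was possible because the labels tie no array to a mouse and give no replicate number (those used here follow the order of deposit and only name arrays), and no slide block could be fitted since WT 0 h and WT 3 h lay on slides of their own.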
